A study of Mus musculus with 8 samples.

Results

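Interferon-stimulated genes are the genes that cells switch on when a virus, or interferon sent out by a neighbouring cell, is sensed. A list of 38 genes under this name was followed in primary fibroblasts of mouse embryos (cultures started from the tissue itself). The cells were with or without the cryptochromes Cry1 and Cry2, the repressors of the circadian clock. The list also holds parts of the pathway itself, such as the receptor genes Ifnar1 and Ifnar2 and the factor Irf3. These enter the counts and medians. A gene was read from the probe sets annotated to it alone, and of several the one with the highest mean over the 8 arrays was taken. This gave 34 of the 38 genes a value, out of 13307 genes read that way on the arrays. Oasl1, Mx2 and Ifi44 were not analysed here, and Isg15 was listed only through a probe set that it shares with another gene. Of the 34 genes, 21 had a mean signal at or above the floor of 6.06 on the log2 scale (the 40th percentile of all probe sets) and were tested among 9511 genes. The other 13 lay below it and are given as values, with a fit that has no floor as an alternative.

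The 8 arrays came from 4 wild-type (WT) lines and 4 Cry1-/-, Cry2-/- lines (Cry DKO), each an independent line, with no treatment. Both genotypes had a near-C57BL/6J background, reached by more than 7 backcrosses from BL6/129 mice, and both grew asynchronously in DMEM/F10 medium with 10% serum at 3% oxygen. The deletion is in all cells of the embryo, and clock phase and cell cycle stage are averaged within each array. In these bulk samples fewer cells of a type and less RNA per cell cannot be told apart.

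In the pathway, interferon binds the receptor subunits IFNAR1 and IFNAR2 and activates a complex that contains STAT2 and IRF9. This complex binds a DNA element, the interferon-stimulated response element (ISRE), in the promoters of its targets. The sensors RIG-I (Ddx58) and MDA5 (Ifih1) recognise viral RNA and lead to new interferon, while USP18 is the brake that turns the receptor signal down. Cultured fibroblasts keep a low basal activity of this loop without any virus.

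The deleted genes themselves were read first. Cry1 had 7.27, 6.51, 6.95 and 6.42 in WT 1 to 4 and 6.32, 5.84, 6.50 and 6.50 in Cry DKO 1 to 4, with overlapping genotypes (-0.50, SE 0.21, adjusted p = 0.168 by limma). Cry2 had 7.15, 7.34, 6.97 and 7.34 in WT and 6.86, 7.12, 6.85 and 6.64 in Cry DKO lines, which overlapped too (-0.34, SE 0.13, adjusted p = 0.131). WT 4 was the lowest WT line for Cry1, within the Cry DKO values, and lay above all Cry DKO lines for Cry2. Whether these probe sets lie in the deleted parts was not analysed here, so these values do not settle the genotype labels, which are used as given.

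Array medians lay between 6.78 and 6.79, and correlations of whole arrays were 0.973 to 0.977 within and 0.967 to 0.975 between genotypes. Of 14 fibroblast markers 10 were above the floor, with a list mean of 13.2 to 13.4 in WT and 13.0 to 13.2 in Cry DKO lines, and Col5a1, a fibrillar collagen, fell by 0.16 (SE 0.04, adjusted p = 0.032 by limma). The probe sets of Dcn, Lum and Pdgfra were below the floor. All 25 macrophage and blood cell markers were above the floor, 14 of them rose in Cry DKO lines and none fell. Trem2, among the 14, had a WT mean below the floor (5.43) and entered only through its Cry DKO lines (6.75). The mean of that list was 8.04 to 8.68 in WT and 8.68 to 9.69 in Cry DKO lines. Those that passed with the smallest p were Cd14 (0.92), Lyz1 (0.67), Lyz2 (0.83), Cd53 (0.92), Csf1r (0.84) and Laptm5 (0.90), as differences on the log2 scale. None of 13 lymphocyte and plasmacytoid dendritic cell markers had a usable probe set, none of the 5 endothelial markers with one was above the floor, and the 2 of 8 epithelial markers above it did not pass.

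The promoter element of the pathway is shown first, since some of these genes hold its letters and others do not. Promoter windows of 300 bases, from 250 bases before to 50 after the annotated start, were taken from RefSeq (GRCm38.p6), and 31 of the 38 genes had one. The ISRE letters searched were GAAANNGAAA on both strands, where overlapping matches were counted apart. They were found for 14 of the 31 genes (45.2%), not for Irf9, Ifi35, Xaf1, Trim25 or Oasl2 among others, and for 3.99% of all 27025 genes with a window. The gamma-activated site, an element of the response to interferon gamma, was searched as TTCNNNGAA. It was found for 11 of the 31 (35.5%) and for 9.55% of all genes, and in the Bst2 and Ifitm3 windows it overlapped an ISRE match. A match is a description of letters, not of binding. The stretches below, from 150 bases before the start through the first 30 bases of the transcript, are those of the genes that passed the genotype test and had an ISRE match in this stretch, with each ISRE match in capitals (in Ddx58 on the opposite strand, read as TTTC). All 4 lie on the minus strand and are written 5′ to 3′ along the gene, at chr4:40239796-40239975 for Ddx58, chr5:120907496-120907675 for Oas1a, chr7:141010715-141010894 for Ifitm3 and chr8:71537443-71537622 for Bst2.
Ddx58: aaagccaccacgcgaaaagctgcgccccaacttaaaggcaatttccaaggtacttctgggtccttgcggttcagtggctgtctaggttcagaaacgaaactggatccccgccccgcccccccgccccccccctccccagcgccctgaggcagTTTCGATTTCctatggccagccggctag
Oas1a: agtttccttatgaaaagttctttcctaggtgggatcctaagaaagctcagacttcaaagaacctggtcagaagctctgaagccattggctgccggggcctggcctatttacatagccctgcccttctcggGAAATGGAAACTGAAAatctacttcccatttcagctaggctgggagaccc
Ifitm3: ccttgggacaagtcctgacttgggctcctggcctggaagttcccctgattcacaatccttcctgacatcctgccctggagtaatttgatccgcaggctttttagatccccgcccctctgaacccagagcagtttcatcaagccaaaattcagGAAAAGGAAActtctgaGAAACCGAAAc
Bst2: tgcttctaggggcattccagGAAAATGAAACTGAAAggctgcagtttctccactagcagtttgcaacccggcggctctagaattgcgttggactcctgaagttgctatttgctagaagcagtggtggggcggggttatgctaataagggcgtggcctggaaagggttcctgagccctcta

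In Oas1a and Bst2 a pair of matches overlapped, so that the GAAA repeat occurs 3 times in a row. In Ifih1 the match, GAAACAGAAA, lay just downstream of the stretch length shown for the others.

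The comparison of genotypes asked whether cells without cryptochromes carry a different basal level of these genes. Of the 21 tested genes 8 were higher in Cry DKO lines and 0 lower at an adjusted p of 0.05 (limma, Benjamini-Hochberg over all 9511 genes), where 4.95% of all tested genes were called higher and 4.23% lower. They were Rtp4, Oas1a, Ifih1, Bst2, Ifitm3, Irf9, Ddx58 and Ifi35. Rtp4 had a WT mean below the floor (5.75) and entered the test only through its Cry DKO lines. At an unadjusted p under 0.05 there were 11 higher and 1 lower, the receptor gene Ifnar2. The share of all genes at that p is not given here, so these counts have no background. An unmoderated test of each gene called 1 higher and none lower, and 317 of all 9511 genes. The median difference, Cry DKO minus WT, was 0.27 over the 21 genes against -0.01 over all tested genes. Over the 34 genes with a value it was 0.49, and 27 of the 34 differences were above 0, where 49.2% of all genes with a value were. The number of members called changed when 1 line was left out. It was 1 without WT 1, 2 without WT 2, 1 without WT 3, 5 without Cry DKO 2, 1 without Cry DKO 3 and 3 without Cry DKO 4, against 9 without WT 4 and 7 without Cry DKO 1. Of all 9511 genes 873 were called with all lines and 382 to 686 with 1 left out, where fewer lines enter each fit. The median difference of the 21 genes stayed between 0.20 and 0.34 in these fits. Ifitm3 was the member called in each of the 8 fits that leave out 1 line.

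**Figure D1:**
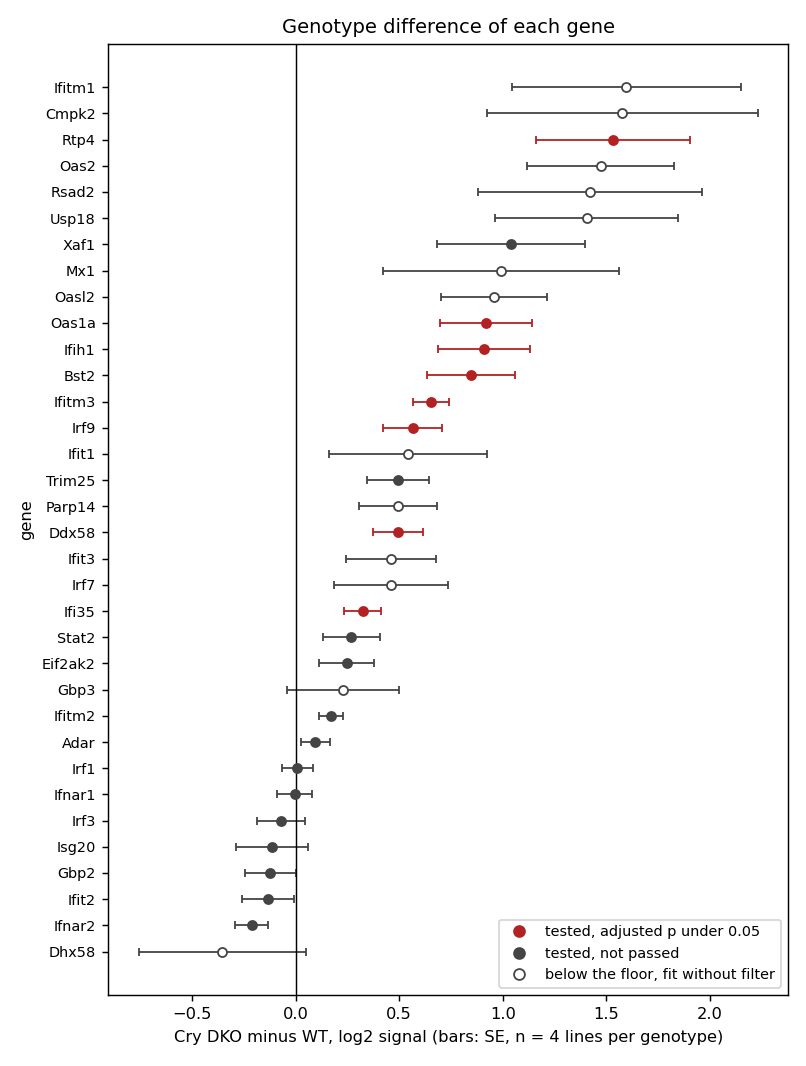
Differences between genotypes (Cry DKO minus WT, log2 signal, horizontal axis) for the 34 genes, with bars of 1 SE (n = 4 lines per genotype). Filled red points are the 8 tested genes past an adjusted p of 0.05, filled dark grey points the other tested genes, and open points the 13 genes below the floor, whose SE comes from the fit without a filter. The differences run from -0.35 (Dhx58) to 1.60 (Ifitm1). The widest bars are of genes below the floor, but the tested Rtp4 and Xaf1 have wider bars than some of those.

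Neither receptor gene passed the test. Ifnar1, the subunit that starts signalling, had a log2 signal of 8.45, 8.57, 8.66 and 8.59 in WT 1 to 4 and of 8.55, 8.36, 8.67 and 8.66 in Cry DKO 1 to 4. The genotypes overlapped fully, and Cry DKO minus WT was -0.01 (SE 0.08, adjusted p = 0.977 by limma). The other Ifnar1 probe set gave 0.15. Ifnar2, the subunit with the higher affinity for interferon, had 9.20, 9.17, 9.02 and 9.01 in WT and 8.83, 9.05, 8.90 and 8.76 in Cry DKO lines. The Cry DKO values lay mostly lower but overlapped, and the difference of -0.21 (SE 0.08) did not pass (adjusted p = 0.121 by limma). Other probe sets of Ifnar2 gave differences of 0.04 and 0.11.

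Among the transcription factors Irf9, the DNA-binding part of the complex, rose. It had 6.97, 7.19, 7.12 and 7.61 in WT and 7.65, 7.64, 7.83 and 8.03 in Cry DKO lines, so every Cry DKO line lay above every WT line, WT 4 only just below. The difference was 0.57 (SE 0.14, adjusted p = 0.032 by limma). Its partner Stat2 had a difference of 0.27 (SE 0.14, adjusted p = 0.255), from 6.09 ± 0.15 (SD, n = 4) to 6.36 ± 0.16. Irf1, which is induced mainly by interferon gamma, hardly varied, at 8.11 ± 0.10 (SD, n = 4) for WT against 8.12 ± 0.03 for Cry DKO and differed by 0.01 (SE 0.07, adjusted p = 0.963). Irf3, which is present before infection and activated by phosphorylation, had a difference of -0.07 (SE 0.12, adjusted p = 0.748). Irf7, itself an induced gene that amplifies the response, lay below the floor with 4.70, 5.49, 5.52 and 6.14 in WT and 5.67, 5.69, 6.34 and 5.98 in Cry DKO lines. For Irf7 the first 3 WT lines were below all Cry DKO lines and WT 4 was within them.

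Both tested RNA sensors rose. Ifih1 (MDA5, the sensor of long double-stranded RNA) had 6.19, 6.21, 5.89 and 6.95 in WT and 6.97, 7.06, 7.69 and 7.15 in Cry DKO lines. The groups did not overlap, although WT 4 came close to Cry DKO 1. The difference was 0.91 (SE 0.22, adjusted p = 0.03 by limma). Ddx58 (RIG-I, the sensor of RNA ends with a triphosphate) had 8.08, 8.41, 8.21 and 8.58 in WT and 8.66, 8.65, 8.95 and 9.0 in Cry DKO lines, all above the WT lines. It was higher by 0.49 (SE 0.12, adjusted p = 0.0289 by limma), a call that ended when its probe sets were averaged (0.30, adjusted p = 0.315). The other probe sets, both below the floor, gave 0.50 and -0.08. Dhx58 (LGP2, a helper of MDA5) lay far below the floor, from 3.61 to 4.63 in WT and from 2.71 to 4.16 in Cry DKO lines, and its groups overlapped.

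Effectors that act on RNA were mixed. Oas1a, which makes the messenger that activates RNase L, had 6.32, 5.60, 6.16 and 6.77 in WT and 7.50, 7.10, 7.02 and 6.91 in Cry DKO lines. The groups were apart and the highest line was Cry DKO 1. The difference was 0.92 (SE 0.22, adjusted p = 0.0283 by limma). Cry DKO 1 also had the highest mean of the macrophage markers (9.69). With the marker mean as a covariate the Oas1a difference was 0.34 (SE 0.27, adjusted p = 0.579 by limma). In that fit the calls of all members ended, and 32 of all 9511 genes were called. Oas2, a relative of the same function, was dim, with 2.41, 2.97, 2.79 and 3.51 in WT and 4.69, 4.18, 4.65 and 4.05 in Cry DKO lines. Its groups were apart too, and in the fit without a filter the difference was 1.47 (SE 0.36, adjusted p = 0.0333). Oasl2, which resembles these enzymes, differed by 0.96 (SE 0.26, adjusted p = 0.0488 in that fit). Of all genes with a value 3.32% were called higher in the fit without a filter, and 10 of the 34 genes here were: the 8 above, Oas2 and Oasl2. The Ifit genes, whose products bind foreign RNA caps and block translation, did not pass. Ifit2 was at 7.13 ± 0.11 (SD, n = 4) for WT against 6.99 ± 0.22 for Cry DKO (difference -0.13, SE 0.12, adjusted p = 0.545). Ifit1 and Ifit3, below the floor, had differences of 0.54 and 0.46, and for both WT 4 lay within the Cry DKO values. Eif2ak2 (PKR, a kinase that stops translation), Adar (an RNA editing enzyme that limits sensing) and Isg20 (an RNA exonuclease) differed by 0.25, 0.09 and -0.12, none past the threshold (adjusted p = 0.284, 0.444 and 0.723 by limma).

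The nucleotide enzymes Rsad2 (viperin, which makes a chain terminator of viral RNA synthesis) and Cmpk2 (a kinase encoded beside it) had among the dimmest signals. Rsad2 had 0.91, 3.51, 2.48 and 2.64 in WT and 3.60, 3.88, 4.25 and 3.51 in Cry DKO lines. Cmpk2 had 2.79, 0.91, 1.75 and 4.25 in WT and 4.09, 3.11, 4.46 and 4.36 in Cry DKO lines. The spread among WT lines was wide for both (SD 1.08 and 1.44), and neither passed in the fit without a filter (adjusted p = 0.156 and 0.192 by limma).

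Of the membrane factors Ifitm3, which blocks fusion of viruses in endosomes, gave the smallest p of the 34 genes. It had 11.78, 12.01, 11.83 and 12.24 in WT and 12.55, 12.61, 12.69 and 12.62 in Cry DKO lines. The Cry DKO lines were close together and above all WT lines, of which WT 4 was the highest. The difference was 0.65 (SE 0.09, adjusted p = 0.00211 by limma), a 1.57-fold rise. Bst2 (tetherin, which holds budding virions at the cell surface) had 7.13, 7.06, 6.92 and 7.64 in WT and 7.72, 7.62, 8.56 and 8.24 in Cry DKO lines. WT 4 exceeded Cry DKO 2 by a small margin, so the groups overlapped. The difference was 0.85 (SE 0.21, adjusted p = 0.0317). Ifitm2, a close relative of Ifitm3, had the same order of genotypes at a smaller size, 11.65 ± 0.11 (SD, n = 4) against 11.82 ± 0.03, and did not pass (difference 0.17, SE 0.06, adjusted p = 0.0827). Whether the probe sets of Ifitm2 and Ifitm3 tell these similar genes apart was not tested. Ifitm1, below the floor, had 5.67, 5.03, 3.85 and 5.92 in WT and 8.42, 6.74, 5.99 and 5.72 in Cry DKO lines. Cry DKO 1 stood above the others, and the difference of 1.60 (SE 0.55) did not pass in the fit without a filter (adjusted p = 0.117).

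The large GTPases gave no call. Gbp2, which attacks the vacuoles of intracellular pathogens, differed by -0.12 (SE 0.12, adjusted p = 0.573 by limma), and its other probe set gave -0.21. Gbp3 and Mx1, a trap for influenza nucleoproteins, were below the floor with overlapping groups. WT 4 was the lowest WT line for Mx1, at 1.31 against 2.88 to 4.13 in the others, as it was by a small margin for Ifnar2.

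Usp18, which removes ISG15 and silences the receptor, had 4.03, 5.06, 3.90 and 6.11 in WT and 5.62, 6.00, 7.00 and 6.10 in Cry DKO lines. WT 1 to 3 lay below all Cry DKO lines. WT 4 was within the Cry DKO range, next to Cry DKO 4 and below only Cry DKO 3. The difference of 1.41 (SE 0.44) did not pass in the fit without a filter (adjusted p = 0.0881 by limma). Trim25, the ubiquitin ligase that activates RIG-I, had 7.91, 8.32, 8.16 and 8.64 in WT and 8.82, 8.74, 8.97 and 8.47 in Cry DKO lines. WT 4 lay above Cry DKO 4, and the difference of 0.49 (SE 0.15) did not pass (adjusted p = 0.0614). The other Trim25 probe sets gave 0.51 and 0.29.

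Of the remaining induced genes Rtp4, a restriction factor of flaviviruses, had the largest tested difference. It had 4.94, 5.66, 5.44 and 6.98 in WT and 6.95, 7.04, 7.94 and 7.21 in Cry DKO lines. WT 4 stood 1.63 above the mean of the other WT lines and just above Cry DKO 1. The difference was 1.53 (SE 0.37, adjusted p = 0.0289 by limma), a 2.89-fold rise. Xaf1, a pro-apoptotic gene, had 5.92, 6.58, 5.70 and 7.54 in WT and 7.09, 7.14, 8.13 and 7.55 in Cry DKO lines. WT 4 lay within the Cry DKO lines, and the difference of 1.04 (SE 0.36) did not pass (adjusted p = 0.0973). The other Xaf1 probe set, far below the floor, gave -0.43. Ifi35 rose by 0.32 (SE 0.09, adjusted p = 0.0432), from 9.61 ± 0.13 (SD, n = 4) to 9.93 ± 0.15, with no overlap. This call was lost when each probe set was tested (adjusted p = 0.0516), and its other probe sets gave 0.10 and 0.35. Parp14, an ADP-ribosyltransferase, had 5.25, 5.35, 5.20 and 5.89 in WT and 5.93, 6.11, 5.86 and 5.77 in Cry DKO lines, again with WT 4 among the Cry DKO values.

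**Figure D2:**
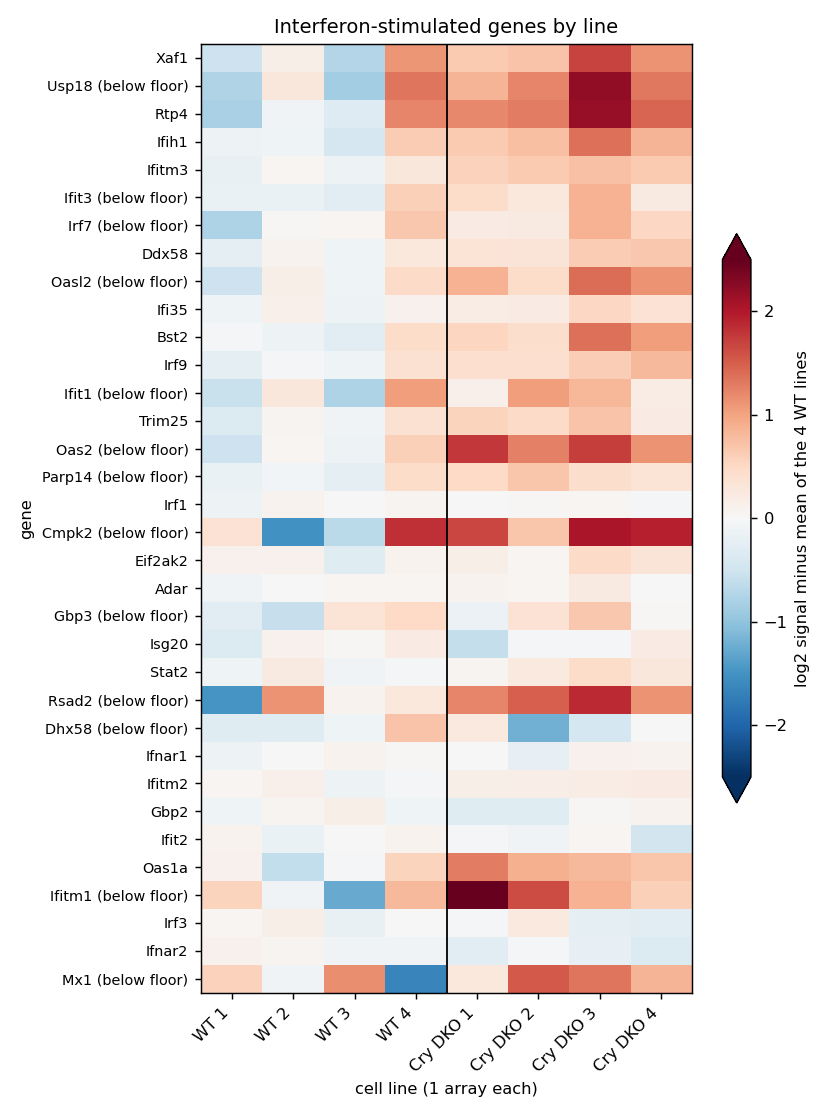
Log2 signal minus the mean of the 4 WT lines (colour) for the 34 genes (rows) in the 8 lines (columns, 1 array each). Rows are ordered by how closely a gene's deviations from its genotype mean follow those of the other tested genes, from 0.98 (Xaf1 and Usp18) to -0.63 (Mx1). In the top rows (Xaf1, Usp18 and Rtp4) WT 4 has the colours of the Cry DKO lines and Cry DKO 3 is the darkest.

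The genes varied together between lines of 1 genotype. WT 4 was the highest WT line for 21 of the 34 genes, where it was for 25.5% of all genes with a value. Of the 8 called genes it was the highest WT line for 7, with Ifi35 as the exception. Its median deviation from the mean of the other WT lines was 0.51 over the 34 genes and 0.13 over the 21 tested ones, against 0.01 over all tested genes. WT 4 was named for these values, so they are a description with no test. The deviations of WT 4 were largest for Cmpk2 (2.43), Usp18 (1.78), Rtp4 (1.63), Xaf1 (1.47) and Ifit1 (1.39). They were near 0 for Ifnar1 (0.03), Irf3 (-0.02), Stat2 (-0.03) and Ifitm2 (-0.04).

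Among Cry DKO lines, Cry DKO 3 was the highest for 20 of the 34 genes and the lowest for none, where it was the highest for 20.8% of all genes with a value. Its median deviation from the other Cry DKO lines was 0.26 over the 34 genes. The mean log2 signal of the 21 tested genes was 7.77, 7.93, 7.79 and 8.19 in WT 1 to 4 and 8.19, 8.22, 8.48 and 8.30 in Cry DKO 1 to 4. By this measure WT 4 equalled Cry DKO 1, and the other WT lines lay below all Cry DKO lines.

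**Figure D3:**
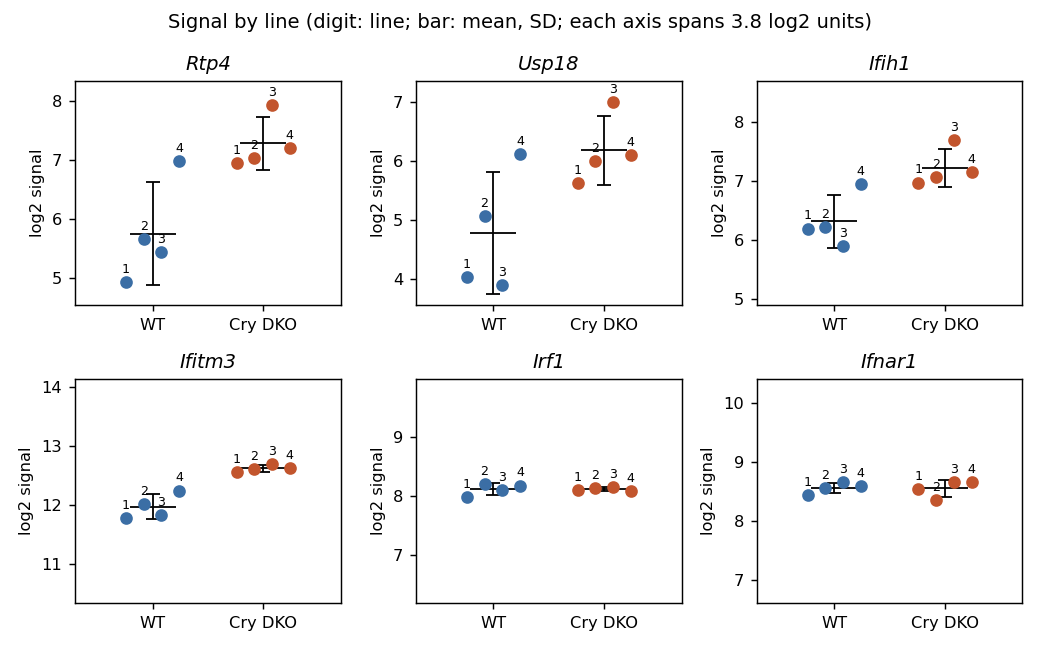
Log2 signal of 6 genes in each line (points, with the line's number), with the mean and SD of each genotype (n = 4 lines). Each vertical axis spans the same range. For Rtp4, Usp18 and Ifih1 the point of WT 4 lies at or next to the Cry DKO points, for Ifitm3 it lies between the genotypes, and Irf1 and Ifnar1 are flat.

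The values without WT 4 are given as a description. WT 4 was singled out for its high level of these genes, and leaving out a line above the other WT lines raises Cry DKO minus WT by arithmetic, so a larger difference or a gained call there supports nothing. The median difference over the 34 genes was 0.64 without WT 4 and 0.49 with it. The groups were apart with Cry DKO higher for 8 of the 34 with WT 4 included, where 6.86% of all genes with a value were, and for 19 of the 34 without it, where 9.39% were. In the fit without a filter and without WT 4, a choice made after seeing the data, 12 of the 34 genes and 2.41% of all genes were called higher. With WT 4 kept in that fit Usp18, Xaf1 and Trim25 did not pass (adjusted p = 0.088, 0.107 and 0.0681 by limma). Ifi35, for which WT 4 was not the highest WT line, was not called without WT 4 (0.36, adjusted p = 0.0619).

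After the genotype means were removed, the median Pearson correlation over the 210 pairs of tested genes was 0.34 across the 8 lines, against 0.003 over pairs of all tested genes. It is a description: the values of 1 line share an array, and the deviations within a genotype sum to 0. Usp18, Xaf1, Rtp4, Ifih1 and Ifitm3 followed the mean of the other tested genes most closely (0.98, 0.98, 0.95, 0.94 and 0.92). Oas1a (0.09), Ifitm2 (0.14), Gbp2 (0.11), Ifit2 (0.11), Ifitm1 (-0.01), Irf3 (-0.31), Ifnar2 (-0.33) and Mx1 (-0.63) did not. Outside the list, the 8 tested genes whose deviations were most like the mean of the tested members were Wdr5 (0.98), Lgals3bp (0.98), Dus3l (0.97), Rnf217 (0.94), Jtb (0.94), Pnpt1 (0.94), Psmb4 (0.94) and Ube2q2 (0.93). Lgals3bp, a secreted lectin-binding glycoprotein, and Pnpt1, a mitochondrial RNA-degrading enzyme, are themselves interferon-induced genes. Lgals3bp had 7.50, 7.88, 7.54 and 8.71 in WT and 8.47, 8.47, 9.01 and 8.57 in Cry DKO lines, so that WT 4 exceeded 3 of the 4 Cry DKO lines. Its genotype difference of 0.72 (SE 0.23) did not pass (adjusted p = 0.0794 by limma).

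Macrophages express many of these genes, and their markers were higher in Cry DKO lines. Within genotypes the markers had another order than the interferon-stimulated genes. The marker mean was 8.68, 8.04, 8.40 and 8.54 in WT 1 to 4, so WT 1 was the highest and WT 4 the second. It was 9.69, 9.24, 8.68 and 9.01 in Cry DKO 1 to 4. Cry DKO 3, the line with the highest interferon-stimulated genes, had the lowest markers of its genotype, at the level of WT 1, the line with the lowest mean of the 21 genes. With the marker mean as a covariate the median difference of the 21 genes was 0.43 in place of 0.27, and 18 of the 21 differences were larger. No member was then called in limma, where 32 of all 9511 genes were, against 873 without the covariate. An unadjusted p under 0.05 was reached by 11 members, and the share of all genes at that p is not given here. The median SE rose from 0.12 to 0.18. No Cry DKO line had a lower marker mean than a WT line, so covariate and genotype cannot be fully told apart. Ifitm3 had 0.75 (adjusted p = 0.0521) and Ifi35 0.56 (adjusted p = 0.0673) in that fit. The part of the macrophage signal in the genotype difference was not tested beyond these values.

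**Figure D4:**
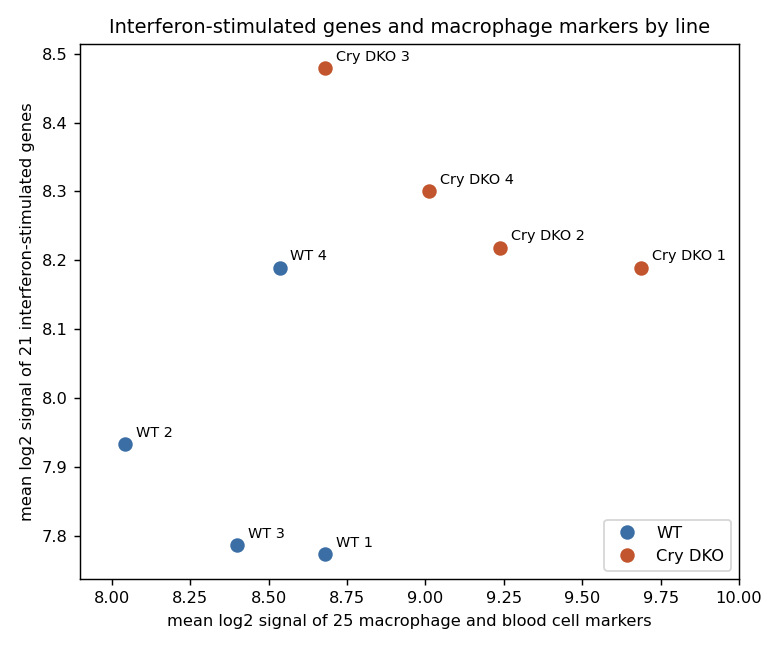
Mean log2 signal of the 21 tested interferon-stimulated genes (vertical axis) against that of 25 macrophage and blood cell markers (horizontal axis), 1 point per line. Cry DKO 3 and WT 1 have the same marker level, 8.68, and means of 8.48 and 7.77 for the interferon-stimulated genes.

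The rest of the pathway was read from lists of other genes. In the list of interferons, other receptors and JAK-STAT signalling none of 10 tested genes passed in limma or in the unmoderated test. An unadjusted p under 0.05 was reached by 2 of them, again without the share of all genes. Ifnb1, interferon beta, was below the floor with 2.96 to 3.88 in WT and 3.16 to 4.51 in Cry DKO lines, and the interferon alpha genes of the list had no usable probe set. Of 14 nucleic acid sensors and adaptors 1 rose, where 4.95% of all tested genes did, a share too close to read anything about the list. It was Rnaseh2b (0.36, SE 0.07, adjusted p = 0.00941 by limma), a subunit of the enzyme that removes RNA from DNA. It had 8.82, 8.88, 8.64 and 8.80 in WT and 9.12, 9.13, 9.19 and 9.16 in Cry DKO lines, with WT 4 among the WT lines. Of 42 other interferon-induced genes 11 rose and none fell, where 4.95% of all tested genes rose and 4.23% fell, with a median difference of 0.32 against -0.01 over all tested genes. They were Samd9l (0.93, SE 0.13, adjusted p = 0.00283), a restriction factor of translation, the proteasome subunits and activator Psmb8 (0.93), Psmb10 (0.32) and Psme1 (0.23), the class I molecule H2-K1 (0.39), Trim30a (0.92), Ifi27 (0.90), the partners Parp9 (0.65) and Dtx3l (0.60), Nmi (0.54) and Plscr1 (0.39). WT 4 was the highest WT line for 27 of the 42, where it was for 25.6% of all tested genes, and its median deviation from the others was 0.27. Ifi27 had 8.10, 8.68, 8.26 and 9.34 in WT and 9.36, 9.52, 9.60 and 9.51 in Cry DKO lines, with WT 4 next to Cry DKO 1. For Psmb10, by contrast, WT 4 (8.13) lay within the other WT lines (8.08 to 8.14).

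Genes with and without ISRE letters in the promoter window were set side by side. Of the 14 with a match 13 had a value and 9 were tested, of which 5 rose, and the median difference over the 13 was 0.49, from -0.12 (Gbp2) to 1.42 (Rsad2). Of those with a window and no match 15 had a value and 11 were tested, of which 2 rose, Irf9 and Ifi35, with a median difference of 0.32. The median deviation of WT 4 from the other WT lines was 0.36 and 0.29 in these sets. Of all tested genes 4.95% were called higher. Rtp4, also called, and Usp18, Oas2, Parp14, Mx1 and Dhx58 had no window and are in neither set. The ranges of the sets overlapped, and no test was made.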

How the data were processed

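RNA from 8 lines was hybridised to Affymetrix arrays, from 5 ug of total RNA per the labels' protocols. The deposited values are log2 signals per probe set, as made by the authors. GCOS is named in the submitters' processing notes, and the base of the log is inferred from the range (0.07 to 14.3). How probe sets were summarised and normalised: not given in the sources used here. Signals near background are less precise: the median WT SD was 0.59 for the genes below the floor and 0.20 for the tested ones.

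Of 30506 probe sets, 24838 named 1 gene, by the platform's annotation with symbols from GRCm38.p6 (24757 matched). Probe sets that were controls, had no name (4949) or named several genes (658) did not enter. The genotype test was limma 3.58.1, run in R 4.3.3 (intensity trend, no covariate, Benjamini-Hochberg adjustment), which was tested on simulated data. The p-values measure the spread between lines. All members are named, with every called gene of the pathway lists, up to 6 called markers and the 8 genes most alike. Psmb10, Lgals3bp and Ifnb1 values beyond the rule were chosen after they were seen. Members and lists were chosen with earlier results of these data known. Alternatives covered filters, probe set rules, normalisation, tests, a replicate block and left-out lines. Median centring could change little, since array medians already lay between 6.78 and 6.79. It gave 877 called genes, and quantile normalisation gave 873.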

Additional observations from a re-analysis of the deposited data

Results flagged for a closer look

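In 68 groups of 4 lines (34 genes in each genotype), a line stood far from the others in 2, where chance gives about 1 in 20. Ifit3 had 6.29 in WT 4 against 5.42 to 5.54 in the other WT lines. Eif2ak2 had 6.47 in WT 3 against 6.86 to 6.88 in the other WT lines.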

How the results depend on the processing

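No difference of a called gene changed sign under the alternatives run. Over all genes, 873 were called, 317 with an unmoderated test of each gene, 32 with the macrophage marker covariate, 210 at an adjusted p of 0.01, 1437 at 0.10, 382 to 686 with 1 line left out, and 552 with no filter and without WT 4. With no intensity trend 668 of 9511 genes were called, and with the 60th percentile filter 705 of 7137. Of the 21 tested genes 8 were called higher, 5 with no intensity trend, 1 with the unmoderated test or at an adjusted p of 0.01, 0 with the covariate, and 1 to 9 with 1 line left out. With the 60th percentile filter 12 of the genes were tested and 5 called, since Ifih1, Oas1a and Rtp4 did not enter. None was called lower under any of these. The median member difference (0.27) was 0.64 with no filter and without WT 4. The median deviation of WT 4 (0.13) was 0.51 with no filter, 0.20 with each probe set, 0.25 with the mean of probe sets, and 0.12 to 0.21 with another WT line left out. The cause of these shifts was not tested, other than that fewer lines or other genes enter. With the replicate block, 1051 genes and 8 members were called. The labels do not say whether same-numbered lines are pairs. Deviations of same-numbered lines correlated at 0.36, 0.12, 0.23 and -0.01, and pairing was not tested further. Signal over background limits what can be said of the 13 dim genes.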

Other observations

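Isg15, a ubiquitin-like protein that is attached to other proteins after interferon, was read from a probe set that it shares with the gene Gm9706, and the signal of the pair cannot be told apart. This probe set had 6.52, 6.63, 6.02 and 7.34 in WT 1 to 4 and 6.89, 7.37, 7.96 and 7.82 in Cry DKO 1 to 4. WT 4 was again the highest WT line and lay between Cry DKO 1 and Cry DKO 2. Cry DKO 3 was the highest line. The difference of 0.88 was not tested, since probe sets of several genes were left out of the fit. In its RefSeq promoter window Isg15 held 3 overlapping ISRE matches.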
